A study of Glycine max with 12 samples.

Results

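Transcript levels of 3 genes that shape the surface and water uptake of the soybean seed were followed through the dissected seed coats of a pair of soybean lines. The genes are GmHs1-1 (Glyma.02G269500) and the endoglucanase of the qHS1 locus (Glyma.02G269400), whose identifiers follow each other on chromosome 2, and the bloom gene B1 (Glyma.13G241700) on chromosome 13. They were taken by identifier and not by a cutoff on their values, though earlier results of these data were known. They are 3 of the 56044 genes in the deposited table. For each, the values are those of the transcript model whose cDNA is longest. The names rest on the literature about these loci, since the table pairs no identifier with a name. The RefSeq gene table used here (assembly Glycine_max_v4.0) lists GmHs1-1 as a synonym on chromosome 2, without a Glyma identifier. Gene coordinates and sequences were not used here.

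Legume seeds become hard when the coat keeps water out. The barrier lies in the outer palisade layer, a row of elongated, thick-walled cells, where cuticle and cell wall polymers seal the surface. GmHs1-1 codes for a calcineurin-like phosphoesterase, and cultivated soybeans with permeable coats carry an altered allele of it. Endo-1,4-beta-glucanases cut the glucan chains of plant cell walls, and the one at qHS1 has been mapped as a cause of hard seed in the same interval. Bloom is a powdery layer that the inner pod wall leaves on the seed, and B1 codes for a transmembrane protein needed for it. Its described site of action is the pod wall, which was not sampled here. The sources used here do not say which alleles of the 3 genes the lines carry.

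The 12 libraries of polyadenylated RNA fall into 4 groups of 3, namely the black saddle and the yellow region of Clark 18a (alleles i-i and k1) and the black saddle and the yellow region of Clark 8 (alleles i-k and K1). All coats were immature, from greenhouse plants with seeds of 100 to 200 mg fresh weight, and lyophilized. The saddle and the rest of each coat had been cut apart before their colours were final. The lines differ at the I and the K1 loci, so a difference between lines cannot be given to either locus.

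Values are RPKM, hits relative to cDNA length and library total, as computed by the authors. Summed hits, recovered from the steps of the low values, ran from 83123127 to 192296346 per library, and the 4 libraries of repeat 3 were the shallowest, with at most 89505760. Libraries of 1 group correlated at 0.871 to 0.978. In the library numbers of the labels, repeats 1 and 2 form 1 run per line, while the repeat 3 libraries of both lines form a run of their own. Marker genes of the seed coat or of other tissues were not checked here, and the identifiers carry no names. In whole tissue, fewer cells of a type and less RNA per cell cannot be told apart.

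The genes lay at very different levels. The endoglucanase was among the most abundant transcripts of the coat, with 78.8 to 228 RPKM (mean 137 over 12 libraries), above 99.6% of all genes in the table. B1 was moderate, with 2.53 to 4.52 RPKM (mean 3.64), above 69.3% of genes. GmHs1-1 was low, with 0.935 to 2.08 RPKM (mean 1.36), above 52.9% of genes. Within a library the endoglucanase held 66.4 to 156 times the RPKM of its neighbour GmHs1-1, with a median of 99.4.

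The hits behind each value set its counting error. GmHs1-1 had 207 to 750 hits per library, B1 482 to 1822 and the endoglucanase 14391 to 84299. If each hit were an independent molecule, counting alone would give an error of 3.65% to 6.95% for GmHs1-1, 2.34% to 4.55% for B1 and 0.344% to 0.834% for the endoglucanase. The spread between libraries of a group was wider in nearly every case. Its coefficient of variation ran from 11.5% to 27.7% for B1 and from 17.7% to 33.5% for the endoglucanase. For GmHs1-1 it ran from 20.0% to 24.6% in 3 groups, and it was 2.07% in the black saddle of Clark 8, below the counting error.

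GmHs1-1 and B1 each had a second transcript model. The models of GmHs1-1 share a coding length of 1377 bases and differ in cDNA length, 1874 against 1705 bases. The shorter one held 0.829 to 0.924 of the hits of the longer. The models of B1 have coding lengths of 1464 and 1575 bases, with cDNAs of 2294 and 2290 bases, and the second held 1.01 to 1.05 times the hits of the first. With hits this alike, the models do not give separate readings, and which protein form is made was not measured. The endoglucanase has 1 model, with 1575 coding bases. How the authors counted hits to related genes or to overlapping transcripts is not given.

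**Figure D1:**
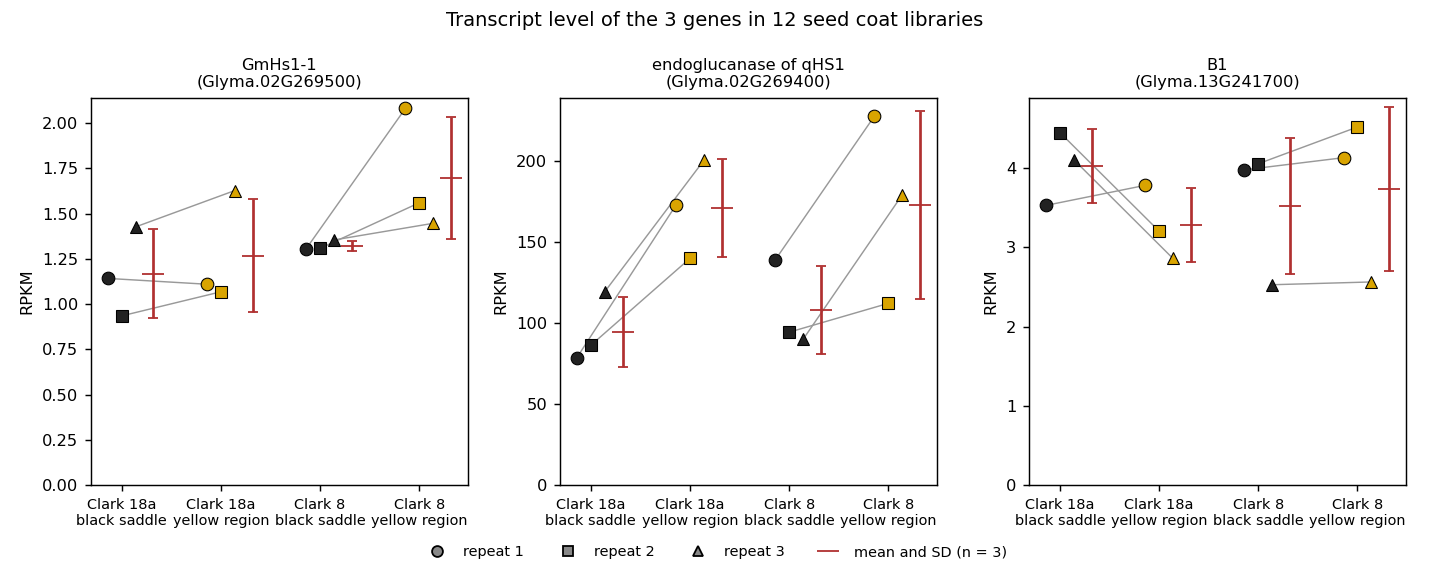
Transcript level of each gene in RPKM (y axes, from 0) in the 4 groups (x axes), 1 point per library with its shape giving the repeat; grey lines join the regions of 1 line and repeat, and red bars give mean and SD of 3 libraries. For the endoglucanase all 6 grey lines run between a lower black saddle and a higher yellow region, while those of GmHs1-1 and B1 do not all run one way.

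In every repeat of both lines, the black saddle held less endoglucanase transcript than the yellow region. In Clark 18a it measured 78.8, 86.3 and 119 RPKM in the black saddle for repeats 1 to 3, against 173, 140 and 201 RPKM in the yellow region. Every black library of Clark 18a lay below every yellow one. Clark 8 gave 139, 94.4 and 90.0 RPKM in the black saddle, against 228, 112 and 179 RPKM in the yellow region. There the groups overlapped, since black repeat 1 was above yellow repeat 2, yet each repeat taken alone had the lower value in black. The black level was 0.455, 0.617 and 0.595 times the yellow level of the same repeat in Clark 18a, and 0.611, 0.841 and 0.502 times in Clark 8.

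In the main fit, which does not pair the repeats, the test within each line did not pass. In Clark 18a the endoglucanase averaged 94.8 ± 21.6 RPKM in black and 171 ± 30.3 RPKM in yellow (SD, n = 3 each). The difference in log2(RPKM + 1) was -0.85 (SE 0.29, 95% interval -1.49 to -0.21, limma adjusted p = 0.0747). Its means in Clark 8 were 108 ± 27.2 RPKM in black and 173 ± 58.1 RPKM in yellow. The log2 difference was -0.65 (SE 0.29, interval -1.29 to -0.01, adjusted p = 0.177), and -0.42 without yellow repeat 1 of Clark 8 (adjusted p = 0.464). Of all genes tested, 15% were called between the regions in Clark 18a and 13.9% in Clark 8, and 0 of the 3 members in either. At an unadjusted p under 0.05 the count was 1 of 3 in each line, the endoglucanase, beside 28.5% of all genes in Clark 18a and 27.4% in Clark 8, a share near that of the members. Voom on the recovered hits also called 0. In log2(RPKM + 1), the endoglucanase lay at the 3.30th percentile of the differences of all genes in Clark 18a and at the 6.19th in Clark 8. That scale shrinks the differences of low genes and hardly those of the endoglucanase, so these ranks also depend on its level.

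Pairing the libraries by repeat changed the calls of the endoglucanase. With the repeat number as a block, it passed in Clark 18a (adjusted p = 0.0312). That block called 7907 of the 30775 genes tested there, against 4607 without it. With the repeat within a line as a block, the endoglucanase passed in Clark 18a (adjusted p = 0.00753) and in Clark 8 (0.0213). The log2 differences stay at -0.85 and -0.65 by design, since every repeat holds both regions of each line. The fit with the block within a line was chosen after the values were seen. It called 39% of all genes in Clark 18a and 37.1% in Clark 8, and neither GmHs1-1 nor B1 was among them. Averaged over both lines, a contrast that was also added later, the log2 difference was -0.75 (SE 0.21, interval -1.20 to -0.30, adjusted p = 0.0185). This contrast called 29.4% of all genes, and 1 of the 3 members. The averaged call was lost without the 4 libraries of repeat 3 (-0.69, adjusted p = 0.0736).

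Agreement of sign was common in these libraries. Of all genes tested, 49% went the same way in all 6 region pairs, and the endoglucanase was the 1 member of 3 that did. Regions that did not overlap were found for 30.5% of genes in Clark 18a, with the endoglucanase the 1 member among them. The same held for 35.6% of genes in Clark 8, where the 1 member among them was GmHs1-1.

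Between the lines the endoglucanase showed no difference that could be told from the spread. In the black saddle it had 94.8 ± 21.6 RPKM in Clark 18a and 108 ± 27.2 RPKM in Clark 8, a log2 difference of -0.18 (SE 0.29, interval -0.82 to 0.46, adjusted p = 0.995). In the yellow region it had 171 ± 30.3 RPKM in Clark 18a and 173 ± 58.1 RPKM in Clark 8 (0.03, interval -0.61 to 0.67, adjusted p = 0.986). The lines' ratios went opposite ways in different repeats. In black they were 0.566, 0.914 and 1.33, Clark 18a over Clark 8. The difference between the region differences was -0.21 (interval -1.11 to 0.70, adjusted p = 1 after rounding). The intervals between lines reach -0.82 in black and 0.67 in yellow, about the size of the region differences.

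GmHs1-1 was low in every group. In Clark 18a its levels were 1.14, 0.935 and 1.43 RPKM in the black saddle, against 1.11, 1.07 and 1.63 RPKM in the yellow region, with overlap. Clark 8 had 1.31, 1.31 and 1.35 RPKM in black, against 2.08, 1.56 and 1.45 RPKM in yellow, so the black libraries were all below the yellow ones. In Clark 8, repeat 1 carried the widest gap and repeat 3 the narrowest.

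No region difference of GmHs1-1 passed. It averaged 1.17 ± 0.247 RPKM in black and 1.27 ± 0.312 RPKM in yellow of Clark 18a (SD, n = 3 each), a log2 difference of -0.06 (SE 0.14, interval -0.37 to 0.24, adjusted p = 0.820). For Clark 8 the means were 1.32 ± 0.0273 RPKM in black and 1.70 ± 0.338 RPKM in yellow (-0.21, SE 0.14, interval -0.51 to 0.10, adjusted p = 0.379). A pseudocount of 1 is as large as these levels and shrinks the differences. With a pseudocount of 0.1 they were -0.105 in Clark 18a and -0.32 in Clark 8, and neither passed. In Clark 8 voom gave -0.39 (adjusted p = 0.293), and without its yellow repeat 1 the limma difference at a pseudocount of 1 was -0.11 (adjusted p = 0.747).

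Between the lines, GmHs1-1 turned with the repeat. In the black saddle it was lower in Clark 18a in repeats 1 and 2, at 0.874 and 0.715 times Clark 8, and higher in repeat 3, at 1.05 times. In the yellow region the ratios were 0.533, 0.685 and 1.13. The tests gave -0.11 in black (interval -0.41 to 0.20, adjusted p = 0.991) and -0.25 in yellow (interval -0.56 to 0.05, adjusted p = 0.475), and -0.18 averaged over the regions (interval -0.39 to 0.04, adjusted p = 0.376). With voom on the recovered hits the yellow difference was -0.53 (adjusted p = 0.264). In the limma fit without repeat 3 it was -0.43 and still did not pass (adjusted p = 0.0764), and without yellow repeat 1 of Clark 8 alone it was -0.15 (adjusted p = 0.857). Since the libraries of repeats 1 and 2 were numbered line by line, the line and the run of libraries cannot be told apart in them.

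With all libraries in the main fit, these line tests called few genes of any kind. Without repeat 3 the counts of all genes were far higher, as the last section gives. In the black saddle 0.0812% of genes were called and 7.99% had lines that did not overlap. In the yellow region the shares were 0.413% and 17.9%, and 0.764% of genes were called in the average over the regions. By limma 0 of the 3 members were called in either region, and 0 had lines that did not overlap. At an unadjusted limma p under 0.05 there were 0 members, beside 5.61% of all genes in black, 13.4% in yellow and 17.8% in the average. With voom 0 members were called, and 1 had an unadjusted p under 0.05. It was GmHs1-1, in yellow (0.0312) and in the average over the regions (0.0395). The share of all genes under that threshold by voom is not given here, so this count cannot be set beside it.

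B1 showed no region or line difference that passed, and its levels followed the repeats of Clark 8. In Clark 18a it measured 3.53, 4.45 and 4.10 RPKM in the black saddle, against 3.78, 3.20 and 2.86 RPKM in the yellow region. Clark 8 had 3.98, 4.05 and 2.53 RPKM in black, against 4.13, 4.52 and 2.56 RPKM in yellow. Both regions of Clark 8 were low together in repeat 3, and black was slightly below yellow in each of its 3 repeats. In Clark 18a the yellow library of repeat 3 was also the lowest of its group, and the black one was not.

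The region differences of B1 had opposite signs in the lines and did not pass. It averaged 4.03 ± 0.464 RPKM in black and 3.28 ± 0.466 RPKM in yellow of Clark 18a (SD, n = 3 each), a log2 difference of 0.23 (SE 0.19, interval -0.19 to 0.65, adjusted p = 0.471). The means of Clark 8 were 3.52 ± 0.860 RPKM in black and 3.74 ± 1.03 RPKM in yellow (-0.06, interval -0.48 to 0.36, adjusted p = 0.891). The difference between these was 0.29 (SE 0.27, interval -0.30 to 0.89) and did not pass (adjusted p = 1 after rounding). The test of that difference called 0.0162% of all genes, and 0 of the 3 members. At an unadjusted p under 0.05 there were 0 members, beside 2.49% of all genes. Voom called 0 of the members and 0 of all genes. Repeat 1 of Clark 18a ran against repeats 2 and 3, with 0.933 times the yellow level in black, against 1.39 and 1.44 times.

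Line differences of B1 did not pass either. In black it had 4.03 ± 0.464 RPKM in Clark 18a and 3.52 ± 0.860 RPKM in Clark 8 (0.17, interval -0.25 to 0.59, adjusted p = 0.989). In yellow it had 3.28 ± 0.466 RPKM in Clark 18a and 3.74 ± 1.03 RPKM in Clark 8 (-0.13, interval -0.55 to 0.29, adjusted p = 0.849). Without repeat 3 the black difference was -0.01.

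**Figure D2:**
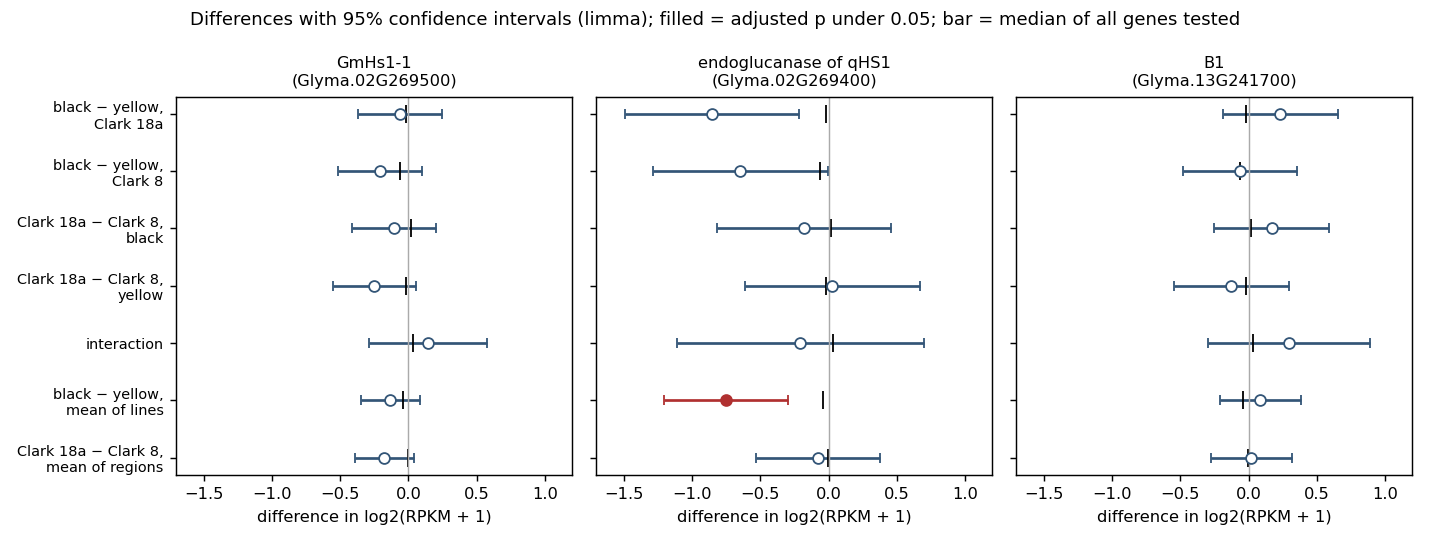
Differences in log2(RPKM + 1) with 95% confidence intervals from limma (x axes) for 7 contrasts (y axis) and each gene; filled points passed at an adjusted p under 0.05, and black ticks mark the median of all genes tested. The endoglucanase lies at -0.85 and -0.65 between the regions and passes, among these 7 contrasts, only in the average of the lines, at -0.75.

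The order of the group means differed from gene to gene. The endoglucanase was highest in the yellow region of Clark 8 (173 RPKM), then in yellow of Clark 18a (171), black of Clark 8 (108) and black of Clark 18a (94.8). Its yellow groups overlapped each other, and so did its black groups. Yellow of Clark 18a, with a lowest library of 140 RPKM, lay just above black of Clark 8, with a highest of 139 RPKM, while yellow of Clark 8, with a lowest of 112 RPKM, overlapped both black groups. GmHs1-1 followed the order yellow of Clark 8 (1.70 RPKM), black of Clark 8 (1.32), yellow of Clark 18a (1.27) and black of Clark 18a (1.17), and apart from the first step all neighbours overlapped. B1 ran from black of Clark 18a (4.03 RPKM) through yellow (3.74) and black (3.52) of Clark 8 to yellow of Clark 18a (3.28), with overlap at every step.

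Splitting each gene's sum of squares over the 12 libraries shows the contrast between the genes. Region took 59.6% of the variation of the endoglucanase, 15.4% of GmHs1-1 and 3.84% of B1, and the median over all genes tested was 22.1%. Line took 26.8% for GmHs1-1, against 0.605% for the endoglucanase, 0.232% for B1 and a median of 6.90%. Repeat number took 47.2% for B1, 16.4% for the endoglucanase, 14.9% for GmHs1-1 and a median of 22.2%. The total SD of log2(RPKM + 1) was 0.507 for the endoglucanase (81.3rd percentile of all genes), 0.228 for B1 (35.4th percentile) and 0.180 for GmHs1-1 (19.7th percentile). Within groups the SD of B1 was at the 56.9th percentile. The scale compresses low genes, and on RPKM itself the highest library was 2.23 times the lowest for GmHs1-1, 1.79 times for B1 and 2.89 times for the endoglucanase. Repeat number has more levels than region or line, so its share tends to be wider even without an effect. The shares describe the libraries and were not tested.

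**Figure D3:**
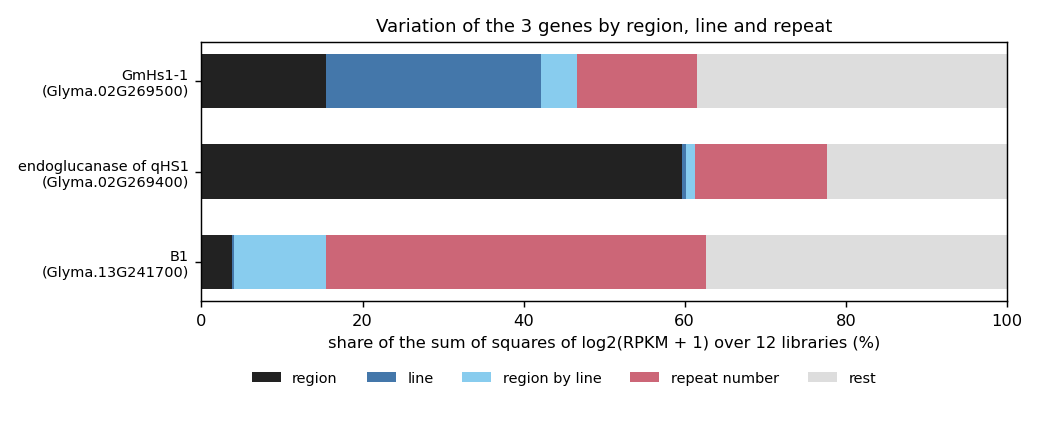
Share of the sum of squares of log2(RPKM + 1) over 12 libraries (x axis, percent) taken by region, line, their interaction, repeat number and the rest, 1 bar per gene. Region is the widest named block for the endoglucanase at 59.6%, line for GmHs1-1 at 26.8% and repeat number for B1 at 47.2%. Repeat number has more levels than region or line, which by itself widens its share.

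The genes most like each member over the 12 libraries were found by Pearson correlation of log2(RPKM + 1), as a description. For the endoglucanase they were Glyma.15G116800 (r = 0.943), with 7.81 ± 0.483 RPKM in black and 18.0 ± 1.99 RPKM in yellow of Clark 18a and 9.02 ± 3.41 RPKM in black and 19.1 ± 7.22 RPKM in yellow of Clark 8, and Glyma.15G009900 (r = 0.943). For GmHs1-1 they were Glyma.05G005300 (r = 0.945) and Glyma.10G016300 (r = 0.944). For B1 they were Glyma.08G329600 (r = 0.945), whose 12 values lay between 0.254 and 1.30 RPKM, and Glyma.03G215200 (r = 0.939), whose values lay between 4.79 and 7.21 RPKM. The libraries share groups and repeats, and each pair is the best of 30775 genes, so such values of r are high by selection.

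The genes next to the members by identifier did not share one direction. Within 10 identifiers on either side of the chromosome 2 pair, 13 of 20 genes were tested, and 1 fell in black in Clark 18a and 2 in Clark 8, while 0 rose. Of all genes tested, 8.86% rose and 6.11% fell in black in Clark 18a, and 7.51% rose and 6.35% fell in Clark 8. In the average over the lines, which was added later, 3 neighbours rose and 2 fell, beside 13.7% and 15.6% of all genes. The risers were Glyma.02G268700 (0.52, adjusted p = 0.0379), Glyma.02G268800 (0.41, 0.0481) and Glyma.02G270200 (0.49, 0.0349). That count of 5 was 1 to 4 when 1 of the libraries that moved it most was left out. The median log2 difference of the neighbours was 0.09 in Clark 18a and -0.08 in Clark 8, beside -0.02 and -0.07 for all genes tested. Glyma.02G270500 fell in both lines. It had 1.09 ± 0.285 RPKM in black and 2.64 ± 0.299 RPKM in yellow of Clark 18a (-0.81, adjusted p = 0.00293). Its levels in Clark 8 were 1.18 ± 0.102 RPKM in black and 4.03 ± 0.778 RPKM in yellow (-1.19, adjusted p = 0.000276). Glyma.02G270000 fell in Clark 8, with 9.94 ± 1.31 RPKM in black and 13.6 ± 1.21 RPKM in yellow (-0.42, adjusted p = 0.0357). Means of the tested neighbours over 12 libraries ran from 1.05 RPKM for Glyma.02G269700 to 19.6 RPKM for Glyma.02G268600, all below the endoglucanase. The count in Clark 8 was 1 instead of 2 when any 1 of 7 libraries was left out, namely those of Clark 8 other than its black repeat 3 and the yellow repeats 1 and 2 of Clark 18a. With the repeat within a line as a block, 5 of these neighbours passed in Clark 18a and 6 in Clark 8. That fit called 39% and 37.1% of all genes in these lines.

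Around B1, 12 of 20 genes were tested, of which 3 rose and 1 fell in black in Clark 18a, and 3 rose and 0 fell in Clark 8. The shares of all genes tested were 8.86% and 6.11% in Clark 18a, and 7.51% and 6.35% in Clark 8. The median log2 difference of these neighbours was 0.17 in Clark 18a and 0.13 in Clark 8. In the average over the lines 4 of them rose and 2 fell, beside 13.7% and 15.6% of all genes. Glyma.13G241900 rose most, to 13.9 ± 3.88 RPKM in black of Clark 18a, against 2.36 ± 1.24 RPKM in yellow (2.17, adjusted p = 0.000177). Its levels in Clark 8 were 12.8 ± 0.392 RPKM in black and 2.34 ± 0.368 RPKM in yellow (2.05, adjusted p = 0.000273). Glyma.13G240800 also rose in both lines, by 0.57 in Clark 18a (adjusted p = 0.0143) and 0.68 in Clark 8 (0.00572). Glyma.13G240700 rose in Clark 18a (0.70, adjusted p = 0.0220) and Glyma.13G242000 in Clark 8 (0.88, 0.0329), while Glyma.13G241400 fell in Clark 18a (-0.72, 0.0179). Glyma.13G241400 was near the floor, with 0.746 ± 0.428 RPKM in black and 1.84 ± 0.461 RPKM in yellow of Clark 18a. Its black mean in Clark 8 was 0.670 RPKM, so its passing of the filter of 1 RPKM leaned on the yellow libraries. B1 itself, between these neighbours, had differences of 0.23 and -0.06. Between the lines 0 of the 13 and 0 of the 12 tested neighbours passed in either region, by limma and by voom. At an unadjusted p under 0.05 there was 1 in each region around the chromosome 2 pair and 0 around B1, beside 5.61% of all genes in black and 13.4% in yellow. These counts are small, and leaving out 1 library moved the count of 4 around B1 in Clark 18a. It was 1 without its black repeat 2, it was 2 without its black repeat 3 or without either of its yellow repeats 1 and 2, and it was 5 without its black repeat 1. In Clark 8 the count of 3 was 2 to 4. With the replicate block, and likewise with the block within a line, 5 neighbours of B1 passed in each line. Both blocks raised the calls of all genes, and the block within a line called 39% in Clark 18a and 37.1% in Clark 8.

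**Figure D4:**
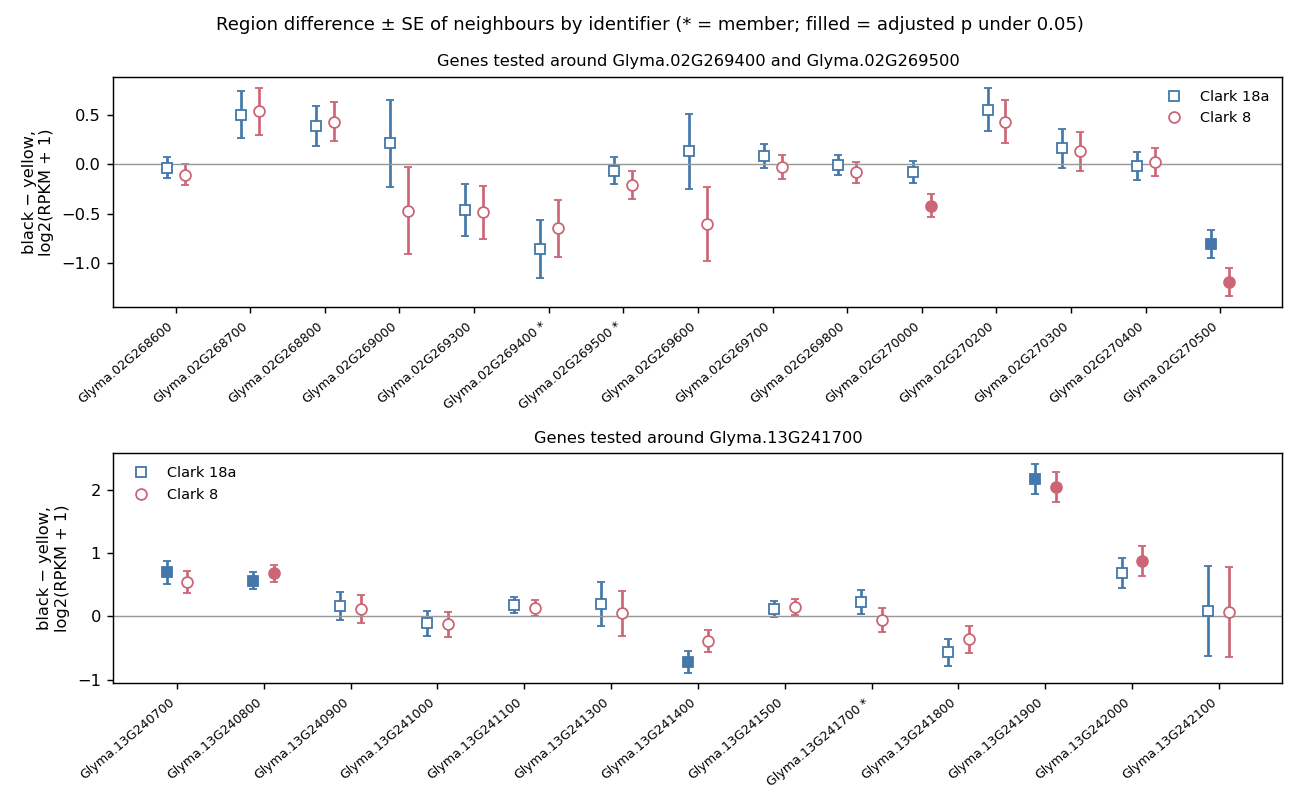
Black saddle minus yellow region in log2(RPKM + 1), with SE, for the members (starred) and the tested genes nearest to them by identifier (x axes, in identifier order), in Clark 18a (squares) and Clark 8 (circles); filled points passed at an adjusted p under 0.05. The endoglucanase lies at -0.85 and -0.65 next to GmHs1-1 at -0.06 and -0.21, and Glyma.13G241900 stands at 2.17 and 2.05, close to B1 at 0.23 and -0.06 (Clark 18a, then Clark 8).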

How the data were processed

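The authors deposited RPKM values for 88647 transcript models in 12 libraries. The submitters' processing notes name Bowtie 1. The sources used here give neither genome build, annotation nor strand, nor how reads with several hits were handled. RPKM multiplied by cDNA length was a whole multiple of 1 hit (100% of values under 50 hits, within 0.05), which gave the hits per library. A hit may count for several models, so totals can exceed the reads. RPKM is not a count, so voom on these hits served only as an alternative.

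Log2(RPKM + 1) of 30775 genes with at least 1 RPKM in at least 3 libraries, all 3 members included, entered a limma model (version 3.58.1, R 4.3.3) with 1 mean per group and an intensity trend. Fold changes on this scale understate changes of low genes. P-values are two-sided, adjusted by Benjamini-Hochberg over all genes and called under 0.05. Exact permutation of 3 against 3 cannot go below 0.1. The script was tested on simulated data. The labels call the libraries biological repeats without saying whether plants were separate, so each p-value covers only the spread between these libraries, which may be technical.

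The labels give repeat numbers to all groups. Same-numbered libraries deviated together between the regions of a line (r = 0.522 to 0.745) and less so between the lines in a region (0.124 to 0.503). Where neither line nor region was shared, r ran from 0.0362 to 0.432. Differently numbered libraries exceeded a bound of 0.1 in 6 of 36 pairs. They reached 0.129 between the regions of a line, 0.290 between the lines in a region and 0.343 where neither was shared. In a region, repeat 2 had only 0.124 and 0.153 between the lines. The numbers therefore pair the regions of a line, while between lines the pairing of repeats 1 and 2 is weak. A repeat block is an alternative, and the block over all groups assumes pairing between lines too. The other alternatives changed the pseudocount, the filter, the scaling, the gene model or the libraries included. The members, the neighbour lists (10 identifiers each side) and the tests were chosen with earlier results of these data known. Named genes are the members, called neighbours, and the 2 tested genes that correlate best with each member. The averaged contrasts and the block within lines were added after the values were seen.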

Additional observations from a re-analysis of the deposited data

How the results depend on the processing

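Over 19 to 22 alternatives per difference, neither GmHs1-1 nor B1 was called in any comparison. The endoglucanase was called between regions in Clark 18a with quantile normalization (-0.94, adjusted p = 0.0428), with the replicate block (-0.85, 0.0312) and with the block within lines (-0.85, 0.00753). Over all its alternatives the adjusted p ran from 0.00753 to 0.186. In Clark 8 it was called with the block within lines (-0.65), with a range of 0.0213 to 0.464. Its average over the lines was called in 20 of 21 alternatives (0.00181 to 0.0736) and not without repeat 3 (-0.69). The replicate block changed no other call of a member.

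Without repeat 3 the sign turned for the endoglucanase between lines in yellow (-0.0391) and for B1 between lines in black (-0.0141) and averaged (-0.13). When 1 library was left out, signs turned for differences near 0: for GmHs1-1 between regions of Clark 18a (-0.147 to 0.0474); for the endoglucanase between lines in black (-0.355 to 0.0173), in yellow (-0.253 to 0.254) and averaged (-0.216 to 0.0378), and in the interaction (-0.433 to 0.0744); and for B1 between regions of Clark 8 (-0.254 to 0.108) and averaged (-0.0107 to 0.170), and between lines in black (-0.0009 to 0.258) and averaged (-0.0754 to 0.0824). The cause was not tested. A minimum of 5 RPKM left GmHs1-1 and B1 untested, so it gave them no value.

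The counts behind the shares of genes called also moved. Between regions they were 4607 in Clark 18a and 4266 in Clark 8, against 7907 and 7476 with the replicate block, 12016 and 11431 with the block within lines, and 2191 and 1958 at a minimum of 5 RPKM, where fewer genes were tested. With only the libraries compared, Clark 18a gave 2894. Leaving out 1 library gave 2952 to 5693 in Clark 18a, with 2952 and 2985 without its yellow repeats 2 and 1, and 2549 to 4809 in Clark 8, with 2549 without its yellow repeat 2 and 2804 and 2787 without its black repeats 1 and 2. The average over lines gave 9036, 16772 with the block within lines and 4328 at 5 RPKM. Between lines in black the count of 25 became 52 with the block, 1240 without repeat 3, 48 with no filter, 14 at 5 RPKM, 16 with voom, 11 with only the libraries compared and 45 without Clark 18a black repeat 3. In yellow 127 became 208 with the block, 3636 without repeat 3, 200 with no filter, 35 at a pseudocount of 0.1, 73 with quantile normalization, 12 at 5 RPKM, 3 with only the libraries compared, and 14 to 509 without 1 library, where 10 of the 12 libraries moved it by over 1.5 times. The average over regions gave 235, 1899 with the block, 5963 without repeat 3, 71 at 5 RPKM and 54 to 1407 without 1 library, moved as far by 11 of the 12. The interaction count of 5 ran from 0 to 10.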
